A study of Homo sapiens with 6 samples.

Results

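Nonsense-mediated decay (NMD) factors were examined in K562 cells depleted of N6AMT1, the methyltransferase that modifies the translation release factor eRF1. The 9 factors are UPF1, UPF2, UPF3A, UPF3B, SMG1, SMG5, SMG6, SMG8 and SMG9. They were chosen by name, for their place in the decay machinery and because transcripts of several of them are themselves decay targets, and they are 9 of the 19330 genes counted. All 9 passed the filter on low counts, along with 8324 genes in all. The RNA-Seq libraries compared were 3 sgCtrl and 3 sgN6AMT1 libraries, each from an independent lentiviral transduction. K562 is a chronic myelogenous leukemia line, and all cells of both groups carried the pLentiCRISPRv2 vector, which expresses Cas9 and an sgRNA. Both groups were selected with puromycin for 48 h and collected 10 days after infection. Olfactory receptor genes are the targets of the control sgRNAs in the labels, whereas the methods of the study also list a nontargeting sgRNA against EGFP, and the sgN6AMT1 cells received sgRNAs against N6AMT1. Which of the sgRNAs each library carried is not stated in the sources used here.

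NMD removes mRNAs on which translation ends too early, and it also sets the level of many normal transcripts. When a ribosome stops and eRF1 and eRF3 act at the stop codon, the RNA helicase UPF1 can be recruited there. UPF2 binds UPF1, and either of the paralogs UPF3A and UPF3B can join UPF2 to the exon junction complex that splicing left downstream. The kinase SMG1, held by SMG8 and SMG9, phosphorylates UPF1, which then recruits the endonuclease SMG6 and the adaptor SMG5, which leads to decapping and deadenylation. Features known to feed a transcript into this pathway are an upstream open reading frame, a long 3′UTR and an exon junction well beyond the stop codon. Several of the factors have such features, so their own mRNAs are degraded by NMD and can rise when it is impaired.

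The stop codon is the site at which eRF1 and UPF1 meet, so the stop codon contexts of the 9 factors are shown first. Each sequence was read from GRCh38 along the canonical GENCODE v44 transcript, 5′ to 3′, with the stop codon in capitals and flanked by the coding bases before it and the 3′UTR bases after it.
UPF1: gggctgtcccagtatTAAaaggtggcg
UPF2: ggtgggaggagacgtTGAtccagcagc
UPF3A: agggaagaggcagagTGAgtcactgca
UPF3B: gaaggaggagaggagTGAtaagtccag
SMG1: tggacagcctgggtgTGAatggcaaga
SMG5: tggaaggaaattggtTGAtactgaccc
SMG6: tgggcccaggtgggcTGAgggagccac
SMG8: aaggcagtaacacaaTAAgtgttttcc
SMG9: agccgcctgctggccTGAggccaagga
TGA ended 7 of the 9 coding sequences, against 49.2% of 18446 genes. TAA ended the other 2 (28.4% of genes) and TAG ended 0 (22.4% of genes). Both UPF3 paralogs end in TGA, but the base that follows is G in UPF3A and T in UPF3B.

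An ATG in the 5′UTR was present in 4 of the 9 factors, against 37.6% of the genes tested. Their contexts are shown because an upstream open reading frame is one of the known triggers of NMD, with the upstream ATG in capitals.
UPF2: ccggggctaATGttgacaaca
SMG1: cgcttggccATGtcgtgtcgg
SMG5: ctcacagcgATGgcggccgag
SMG9: cctcagcgcATGcgcaggacg
The reading frame from the ATG of SMG5 spans 30 codons and stops before the coding sequence. That of SMG9 spans 92 codons and also stops before the coding sequence. The frames of UPF2 and SMG1 span 12 and 6 codons. Their stop codons overlap the start of the coding sequence, which lies 38 and 20 bases downstream of the upstream ATG. An exon junction more than 50 bases beyond the stop codon was annotated in 0 of the 9 canonical transcripts, against 0.25% of 7996 tested genes. The 3′UTRs ranged from 228 bases in SMG8 to 4709 bases in SMG1, and 5 of 9 were above the median of the tested genes, 1276 bases. SMG1 and SMG9 (3613 bases) had the longest, at percentiles 91.0 and 84.4 of the tested genes. The coding sequence was longer than the median of the tested genes (1425 bases) in 9 of 9 factors, ranging from 1428 bases in UPF3A to 10983 bases in SMG1.

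Total counts were 742470 to 866894 in the sgCtrl libraries and 959319, 5526904 and 4062363 in the sgN6AMT1 libraries, so the deepest libraries all lie in 1 group. At these depths a count of 0 allows up to 3 counts, or 0.543 to 4.04 cpm, the count scaled to a common library size. Counts of N6AMT1 itself were 6, 5 and 9 over the sgCtrl libraries and 0, 18 and 16 over the sgN6AMT1 libraries, or 8.08 ± 2.31 and 2.40 ± 2.11 cpm (mean ± SD, n = 3). It did not pass the filter on low counts, and edited mRNA can still be counted. All 12 erythroid genes that mark K562 cells had counts in every library, and their summed level was 11975 to 18748 cpm in sgCtrl and 19021 to 34361 cpm in sgN6AMT1. Of 11 genes of other cell types, MS4A1 and KRT5 had 0 counts throughout and 4 had counts in every library. The summed level of these 11 was 171 to 195 cpm in sgCtrl and 124 to 178 cpm in sgN6AMT1. Most of it was EPCAM, with means of 155.0 and 124.3 normalized cpm, which was not called (edgeR adjusted p = 0.228). Below the filter on low counts, mean ALB went from 0.38 cpm in sgCtrl to 5.31 in sgN6AMT1, and PECAM1 from 5.77 to 1.55. The higher erythroid sum in sgN6AMT1 was carried by the globins HBG1, HBG2 and HBE1, which were called higher (log2 fold changes 1.04, 1.05 and 0.89). The globin HBZ was not called (-0.39, edgeR adjusted p = 0.116), and the transcription factor LMO2 was called lower (-1.01). Of the 12, 4 were called, beside 9.85% of all tested genes, and 7 had log2 fold changes below 0. HBG1 and HBG2 are near-identical copies, so their separate counts are uncertain. The part of the erythroid genes in the results was not tested. For depth, sgN6AMT1 replicates 2 and 3 were thinned at random to about 825173 counts each. This was a single draw, so its values and calls carry the noise of that draw. The values are given with each result whose call the thinning changed and for UPF3A and UPF3B. In bulk RNA, fewer cells of a kind and less RNA per cell cannot be told apart.

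In sgN6AMT1 libraries the mRNAs of both UPF3 paralogs, which bridge UPF2 to the exon junction complex, were lower, and no factor was called higher. UPF3A was 2.69-fold and UPF3B 2.06-fold lower than in sgCtrl. The UPF3A call held in 17 of 18 alternative fits, whereas that of UPF3B held in 12 and was lost with DESeq2. The core factors UPF1 and UPF2, the kinase complex SMG1, SMG8 and SMG9 and the decay arms SMG5 and SMG6 did not pass the test. The 2 lower factors of 9 stand beside 4.76% of all tested genes called lower, and the 0 higher beside 5.09% called higher (9.85% in either direction), by edgeR's quasi-likelihood test at a Benjamini-Hochberg adjusted p under 0.05. The median log2 fold change of the 9 was -0.19, against 0.0087 for all tested genes. The groups did not overlap for 3 of the 9 (2 lower, UPF3A and UPF3B, and 1 higher, SMG5), against 29.2% of all tested genes (14.1% lower, 15.1% higher).

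**Figure D1:**
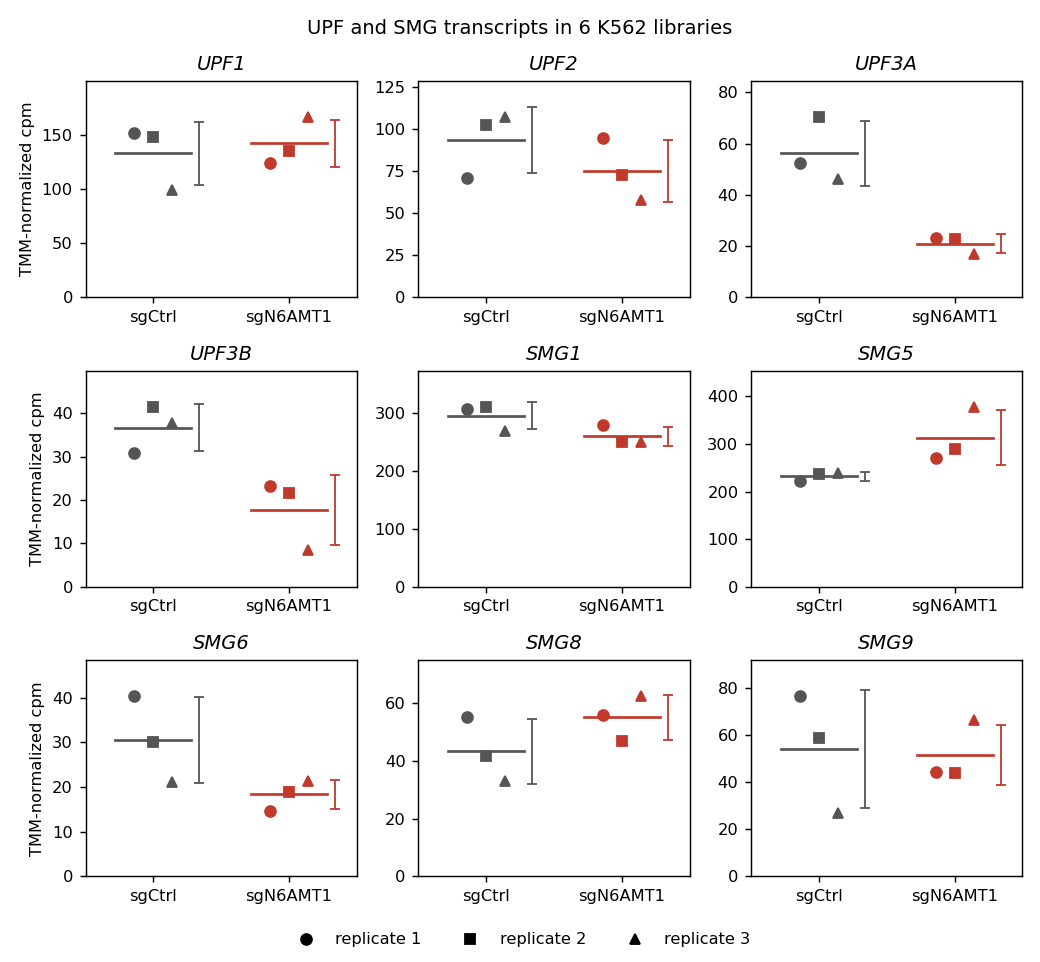
TMM-normalized cpm of the 9 factors in each library, on a linear axis that starts at 0 in each panel, with symbols for single libraries (sgCtrl grey, sgN6AMT1 red), a horizontal line for the group mean and a bar beside it for ± 1 SD (n = 3). The groups are apart for UPF3A and UPF3B, which are lower in sgN6AMT1, and for SMG5, which is higher, while they overlap for the other 6.

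UPF3A (chr13:114281601-114305817, plus strand, GRCh38) encodes the paralog that stimulates NMD weakly and can also compete with UPF3B for UPF2. Its level in normalized cpm was 52.4, 70.4 and 46.0 in the sgCtrl libraries and 23.2, 22.8 and 16.7 in the sgN6AMT1 libraries. Every sgN6AMT1 library lay below every sgCtrl library. The 95% Wilson intervals of single libraries cover counting error only. They ran from 32.9 to 90.4 cpm over sgCtrl and from 12.6 to 34.7 cpm over sgN6AMT1. Between the groups, only the intervals of sgCtrl replicate 3 (from 32.9) and sgN6AMT1 replicate 1 (to 34.7) met. These intervals do not compare the group means. The means were 56.3 ± 12.6 and 20.9 ± 3.64 cpm (SD, n = 3), a level 62.8% lower in sgN6AMT1. On the log2 scale the fold change was -1.45 (SE 0.26, 95% interval -1.99 to -0.92, edgeR adjusted p = 0.00213). The call held in 17 of 18 alternative fits, in which the log2 fold change lay between -1.59 and -1.26. With the deeper sgN6AMT1 replicates 2 and 3 thinned, the log2 fold change was -1.31 (edgeR adjusted p = 0.00626). The call was lost in the fit without those replicates, in which it was -1.26 (edgeR adjusted p = 0.0912). That fit has 1 sgN6AMT1 library, which is assumed to vary like the sgCtrl libraries. GENCODE annotates 3 pseudogenes of UPF3A, not analysed here. How reads shared with them were counted is not given in the sources used here, so the UPF3A counts are uncertain to that extent.

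UPF3B (chrX:119834022-119852998, minus strand) encodes the stronger activator of the pair, and its mRNA is a known decay target. Its level was 30.9, 41.5 and 37.7 normalized cpm in sgCtrl and 23.2, 21.7 and 8.48 in sgN6AMT1. The groups did not overlap, but sgN6AMT1 replicate 3 lay well below the other two libraries of its group. The 95% Wilson intervals of single libraries ran from 20.6 to 57.5 cpm over sgCtrl and from 5.78 to 34.7 cpm over sgN6AMT1, and several met between the groups. The means were 36.7 ± 5.38 and 17.8 ± 8.10 cpm (SD, n = 3), a level 51.5% lower. This gave a log2 fold change of -1.12 (SE 0.34, 95% interval -1.84 to -0.40, edgeR adjusted p = 0.0455). This call held in 12 of 18 alternative fits. With DESeq2, which called 6.7% of the genes it tested (3.12% higher, 3.59% lower), UPF3A passed and UPF3B had an adjusted p of 0.0571. Leaving out sgCtrl replicate 1, 2 or 3 gave adjusted p = 0.0785, 0.182 and 0.0995 by edgeR, and leaving out sgN6AMT1 replicate 3 gave a log2 fold change of -0.73 (edgeR adjusted p = 0.143). With sgN6AMT1 replicates 2 and 3 thinned it was -1.24 (edgeR adjusted p = 0.0445), and in the fit with sgN6AMT1 replicate 1 as the single library of its group it was -0.65 (edgeR adjusted p = 0.626). The direction was the same in all 18.

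Taken as a pair, UPF3A and UPF3B summed to 83.3, 111.9 and 83.7 normalized cpm in sgCtrl and 46.4, 44.5 and 25.2 in sgN6AMT1. Every sgN6AMT1 sum lay below every sgCtrl sum, which follows from the same separation in each paralog and adds no evidence. The means were 93.0 ± 16.4 cpm in sgCtrl and 38.7 ± 11.7 cpm in sgN6AMT1 (SD, n = 3), or 58.4% lower. The ratio of UPF3A to UPF3B counts was 1.70, 1.69 and 1.22 in sgCtrl and 1.00, 1.05 and 1.97 in sgN6AMT1. The sgN6AMT1 libraries held both the lowest and the highest ratio, so the groups overlapped. The mean log2 ratio differed by -0.25 between sgN6AMT1 and sgCtrl (two-sided exact permutation test, p = 0.6, adjusted p = 0.6 over 2 ratios, where 0.1 is the smallest p that 3 against 3 libraries can give).

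**Figure D2:**
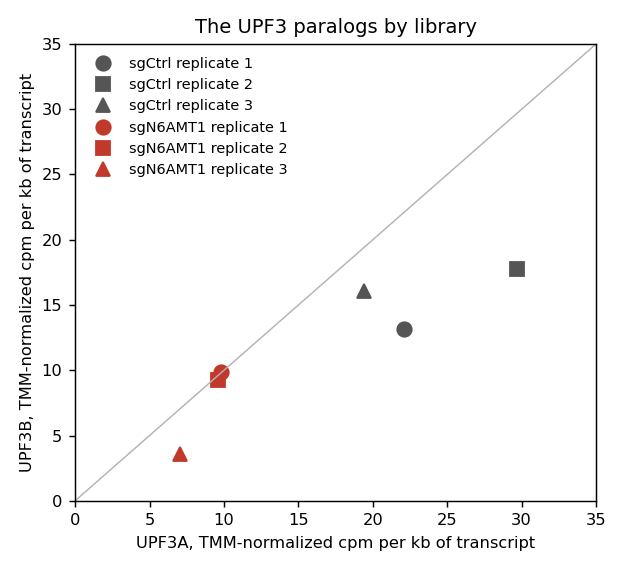
Level of UPF3B against level of UPF3A in each of the 6 libraries, in TMM-normalized cpm per kb of canonical transcript on linear axes, with the line of equal levels. The 3 sgN6AMT1 libraries (red) lie nearer the origin than the 3 sgCtrl libraries (grey) on both axes.

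Over the 6 libraries, the genes closest to UPF3A in log2 normalized cpm were DDX6, CMBL and LUC7L2 (Pearson r = 0.999, 0.999 and 0.996), out of 4169 genes compared. DDX6 is an RNA helicase of the decapping machinery and LUC7L2 a splicing factor. Those closest to UPF3B were SMN1, HSP90B1 and DKC1 (r = 0.997, 0.995 and 0.994). SMN1 has a near-identical copy in the genome and its count is uncertain. UPF3A and UPF3B correlated with each other at r = 0.879, and UPF3B with SMG5 at r = -0.952. These values describe 6 points that share the group difference and the depth of each library.

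UPF1 (chr19:18831959-18868230, plus strand) is the helicase on which all NMD turns. Its level was 151.8, 147.7 and 99.0 normalized cpm in sgCtrl and 124.3, 135.4 and 166.3 in sgN6AMT1. The libraries of both groups were interleaved, with means of 132.8 ± 29.4 and 142.0 ± 21.8 cpm (SD, n = 3). The log2 fold change was 0.11 (SE 0.18, 95% interval -0.27 to 0.49, edgeR adjusted p = 0.752). UPF2 (chr10:11920022-12043170, minus strand), the adaptor between UPF1 and UPF3, stood at 71.2, 102.7 and 107.3 cpm in sgCtrl and 94.8, 73.0 and 58.1 in sgN6AMT1. Here too the groups overlapped, since sgCtrl replicate 1 was below 2 of the sgN6AMT1 libraries. UPF2 had a log2 fold change of -0.36 (SE 0.21, 95% interval -0.81 to 0.08, edgeR adjusted p = 0.291).

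SMG1 (chr16:18804860-18926408, minus strand), the kinase of UPF1, had the longest transcript of the 9 and the most counts in sgCtrl. It stood at 306.4, 310.3 and 267.6 normalized cpm in sgCtrl and 278.2, 250.2 and 249.4 in sgN6AMT1. Only sgN6AMT1 replicate 1 reached into the sgCtrl range. SMG1 had a log2 fold change of -0.19 (SE 0.14, 95% interval -0.49 to 0.11, edgeR adjusted p = 0.427). GENCODE annotates 7 pseudogene copies of SMG1, not analysed here, so its counts are uncertain for the reason given for UPF3A.

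SMG8 (chr17:59209400-59215239, plus strand) and SMG9 (chr19:43727983-43754962, minus strand) bind SMG1 and restrain its kinase activity. SMG8 was at 55.1, 41.5 and 33.0 normalized cpm in sgCtrl and 55.8, 46.9 and 62.2 in sgN6AMT1, with a log2 fold change of 0.35 (SE 0.23, 95% interval -0.14 to 0.84, edgeR adjusted p = 0.363). SMG9 was at 76.6, 58.8 and 27.1 cpm in sgCtrl and 44.3, 43.99 and 66.3 in sgN6AMT1, with a log2 fold change of -0.04 (SE 0.28, 95% interval -0.64 to 0.56, edgeR adjusted p = 0.950). Both genes overlapped between groups, and sgCtrl replicate 3 was the lowest library for each. The ratio of SMG8 to SMG9 counts was 0.719, 0.706 and 1.22 in sgCtrl and 1.26, 1.07 and 0.938 in sgN6AMT1. The mean log2 ratio was 0.34 higher in sgN6AMT1 (two-sided exact permutation test, p = 0.3, adjusted p = 0.6). SMG8 shares 422 exonic bases with another protein-coding gene on its strand, and reads there could count for either.

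SMG5 (chr1:156249224-156282825, minus strand), an adaptor that brings decay enzymes to phosphorylated UPF1, was the factor with the largest positive fold change. Its level was 221.7, 236.5 and 239.3 normalized cpm in sgCtrl and 270.8, 289.7 and 378.4 in sgN6AMT1. Every sgN6AMT1 library lay above every sgCtrl library, and replicate 3 was the highest. The means were 232.5 ± 9.45 and 313.0 ± 57.5 cpm (SD, n = 3), a ratio of 1.35. SMG5 had a log2 fold change of 0.43 (SE 0.16, 95% interval 0.11 to 0.76), with an unadjusted p of 0.0121 and an edgeR adjusted p of 0.0836. SMG5 therefore did not pass the test, and it passed in 0 of 18 alternative fits (adjusted p from 0.0514 to 0.770).

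SMG6 (chr17:2059839-2303785, minus strand) encodes the endonuclease that cuts the mRNA near the stop codon. It was at 40.3, 30.0 and 21.2 normalized cpm in sgCtrl and 14.8, 19.0 and 21.3 in sgN6AMT1. The lowest sgCtrl library was level with the highest sgN6AMT1 library. SMG6 had a log2 fold change of -0.67 (SE 0.30, 95% interval -1.29 to -0.05), with an unadjusted p of 0.0358 and an edgeR adjusted p of 0.156. SMG6 rests on 14 to 104 counts per library. It shares 2419 exonic bases with HIC1 on the opposite strand, and HIC1 itself had 0 to 5 counts per library.

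**Figure D3:**
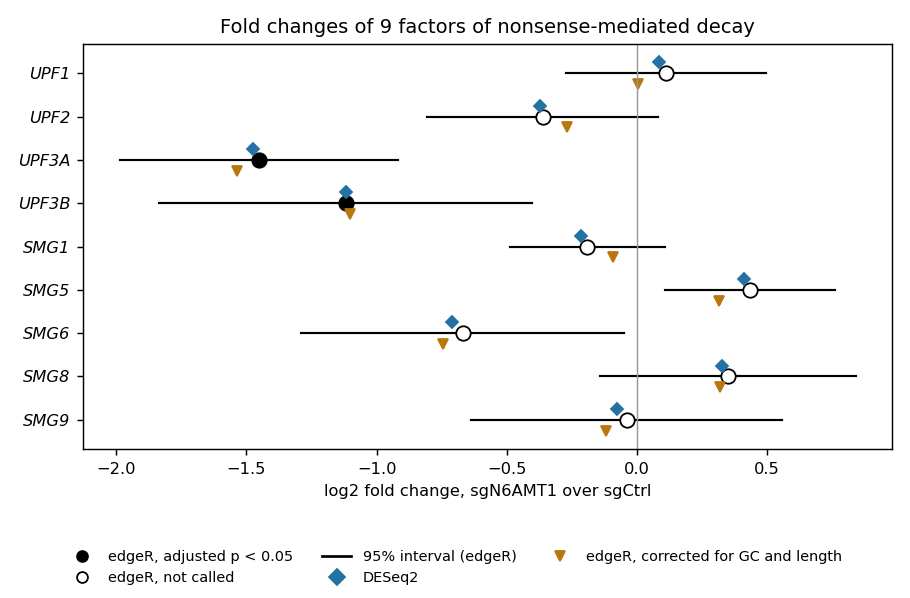
The log2 fold change of each factor (sgN6AMT1 over sgCtrl) by edgeR with its 95% interval, filled where the adjusted p over 8324 genes was under 0.05, beside the values by DESeq2 (diamonds) and by edgeR with GC content and length corrected (triangles). UPF3A and UPF3B are filled at -1.45 and -1.12, while the intervals of SMG5 (above 0) and SMG6 (below 0) leave out 0 without the adjusted test being passed.

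Base composition moved with the fold changes. With the tested genes in 5 equal bins by GC content of the transcript, the median log2 fold change was -0.14 in bin 1, the lowest in GC, and 0.19 in bin 5, the highest. SMG5 (57.58% GC) and UPF1 (60.36%) lie in bin 5, SMG6 (55.26%) and SMG9 (55.18%) in bin 4, UPF3A (48.31%) and SMG8 (47.38%) in bin 3, and UPF3B (41.31%), UPF2 (41.22%) and SMG1 (43.08%) in bin 2. With GC content and length fitted as smooth trends, UPF3A had a log2 fold change of -1.54 (edgeR adjusted p = 8.60e-04) and UPF3B of -1.10 (edgeR adjusted p = 0.0321). In that fit SMG5 stood at 0.32 (edgeR adjusted p = 0.139) and UPF1 at 0.0032.

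Of the 9 factors, 6 are known decay targets themselves (UPF1, UPF2, UPF3B, SMG1, SMG5 and SMG6). Of these 6, 0 were called higher and 1 (UPF3B) was called lower, with 2 log2 fold changes above 0 and 4 below, beside 5.09% of all tested genes called higher and 4.76% called lower. Their median was -0.28. Among the 4 factors with an upstream ATG (UPF2, SMG1, SMG5 and SMG9), 0 were called in either direction, beside 9.85% of all tested genes, and of their 4 log2 fold changes that of SMG5 was above 0.

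Levels of different factors can be compared per length, here as normalized cpm per kb of canonical transcript. In sgCtrl, SMG5 was the highest at 51.0 ± 2.07 (SD, n = 3), and its range did not overlap that of UPF1, the next at 25.0 ± 5.52. UPF3A followed at 23.7 ± 5.34, overlapping UPF1. SMG1 (18.4 ± 1.47), UPF2 (18.1 ± 3.80), UPF3B (15.7 ± 2.30), SMG8 (13.4 ± 3.46), SMG9 (9.87 ± 4.56) and SMG6 (5.11 ± 1.60) came next, each overlapping its neighbour in this order, while the ranges of UPF3A and SMG1 did not overlap. In sgN6AMT1 the order began with SMG5 (68.6 ± 12.6), UPF1 (26.7 ± 4.09), SMG8 (17.1 ± 2.39), SMG1 (16.1 ± 1.02), UPF2 (14.6 ± 3.58) and SMG9 (9.38 ± 2.33). The UPF3 paralogs stood after these, at 8.82 ± 1.53 for UPF3A and 7.60 ± 3.46 for UPF3B, and SMG6 was the lowest at 3.07 ± 0.559. In this order SMG5 and UPF1, UPF1 and SMG8, and UPF3B and SMG6 did not overlap, and the other neighbours did. By its mean, UPF3A stood above SMG1, UPF2 and SMG8 in sgCtrl, where its range of 19.4 to 29.7 overlapped that of UPF2 (13.8 to 20.8), and below all 3 of them in sgN6AMT1.

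Beyond the 9 factors, 47 other genes with a part in NMD were listed, of which 42 were tested. Of these, 1 was called higher and 5 lower (9.85% of all tested genes called, 4.76% lower), with 13 log2 fold changes above 0 and 29 below. Their median was -0.13. The count of 6 fell to 1 without sgCtrl replicate 1, 0 without sgCtrl replicate 2, and 3 without sgN6AMT1 replicate 2 or sgN6AMT1 replicate 3. Calls over all tested genes fell as well, from 9.85% to 3.5%, 2.54%, 5.85% and 6.37% in these fits, in that order.

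Among decapping and decay enzymes, 1 of 8 tested genes was lower, beside 4.76% of all tested genes. DDX6, whose helicase activity takes part in decapping, stood at 139.8, 163.8 and 129.7 normalized cpm in sgCtrl and 94.8, 92.4 and 78.4 in sgN6AMT1. The groups did not overlap, with means of 144.4 ± 17.5 and 88.5 ± 8.85 cpm (SD, n = 3) and a log2 fold change of -0.72 (SE 0.17, edgeR adjusted p = 0.0133). The call on DDX6 was lost without sgCtrl replicate 2 (edgeR adjusted p = 0.101).

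The genes of translation termination include the substrate of N6AMT1. ETF1, which encodes eRF1, had means of 419.3 ± 7.36 and 406.0 ± 21.7 cpm in sgCtrl and sgN6AMT1 (SD, n = 3, with a log2 fold change -0.05, SE 0.14, edgeR adjusted p = 0.861). GSPT1, which encodes eRF3, had a log2 fold change of -0.46 (SE 0.17, edgeR adjusted p = 0.0855), and it passed in 4 of 18 alternative fits. These were the fits without sgCtrl replicate 3 (edgeR adjusted p = 0.0372), without the filter on low counts (0.0457), with the replicate block (0.0286) and with GC content, length and the block (0.0380). The 2 of 6 tested genes called lower (4.76% of all tested genes) were the poly(A)-binding proteins PABPC1 and PABPC4, which sit on the poly(A) tail and oppose NMD when close to the stop codon. PABPC1 fell from 2183 ± 329 to 1274 ± 370 cpm (log2 fold change -0.78, SE 0.19, edgeR adjusted p = 0.0173), and PABPC4 from 382.1 ± 30.7 to 264.5 ± 13.4 cpm (-0.53, SE 0.14, edgeR adjusted p = 0.0246). PABPC1 did not pass without sgCtrl replicate 1, sgCtrl replicate 2 or sgN6AMT1 replicate 2 (edgeR adjusted p = 0.0776, 0.0917 and 0.0593). PABPC4 did not pass without sgCtrl replicate 1, sgCtrl replicate 2, sgN6AMT1 replicate 1 or sgN6AMT1 replicate 2 (0.0881, 0.117, 0.0564 and 0.0901).

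In the exon junction complex, which UPF3 contacts, 1 of 11 tested genes was lower and 0 were higher, beside 9.85% of all tested genes called in either direction. This was CASC3, a shell component, at 97.3 ± 19.0 cpm in sgCtrl and 62.3 ± 13.5 in sgN6AMT1 (log2 fold change -0.68, SE 0.21, edgeR adjusted p = 0.0467), with groups that overlapped. Its adjusted p was 0.105 to 0.188 without sgCtrl replicate 1, sgCtrl replicate 2, sgN6AMT1 replicate 2 or sgN6AMT1 replicate 3. It was also above the threshold with DESeq2 (0.0591), with at least 10 counts required in every library (0.0574) and with sgN6AMT1 replicates 2 and 3 thinned (0.0835). EIF4A3, the core helicase of the complex, had a log2 fold change of 0.04 (edgeR adjusted p = 0.916). Of 7 genes that assemble the SMG1 kinase or dephosphorylate UPF1, 0 were called, with 6 log2 fold changes above 0 and 1 below.

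Among further genes with a part in NMD, 1 of 10 was higher and 1 was lower, beside 5.09% and 4.76% of all tested genes. NBAS, which takes part in NMD at the endoplasmic reticulum, rose from 335.9 ± 26.8 to 475.3 ± 51.8 cpm (log2 fold change 0.50, SE 0.15, edgeR adjusted p = 0.0372). STAU1, a double-stranded RNA-binding protein that recruits UPF1 to 3′UTRs, fell from 136.7 ± 12.7 to 91.4 ± 13.6 cpm (log2 fold change -0.61, SE 0.17, edgeR adjusted p = 0.0322). Neither passed without sgCtrl replicate 1 (0.101 for NBAS, 0.0756 for STAU1), sgCtrl replicate 2 (0.200 and 0.160) or sgN6AMT1 replicate 3 (0.0769 and 0.0703). NBAS also did not pass without sgN6AMT1 replicate 1 (0.0680), nor STAU1 without sgN6AMT1 replicate 2 (0.109) or with sgN6AMT1 replicates 2 and 3 thinned (0.0733).

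**Figure D4:**
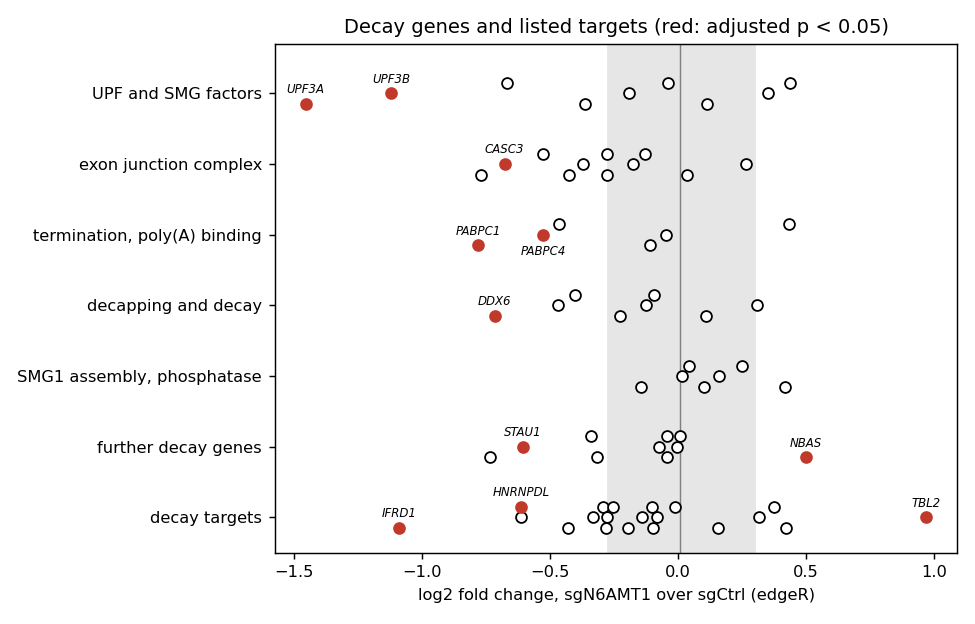
The log2 fold change (sgN6AMT1 over sgCtrl, edgeR) of each tested gene of the 9 factors, of the lists of other NMD genes and of listed decay targets, 1 row per list, in red with its symbol where the adjusted p was under 0.05; vertical offsets within a row only separate the points, and the shaded band runs between the quartiles of all tested genes, with a line at their median. UPF3A and UPF3B have the lowest values shown, and TBL2 the highest.

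The readout most tied to the factors' work is the level of endogenous decay targets, of which 28 were listed and 20 tested. Another 4 were not among the genes counted, and 4 more did not pass the filter on low counts. Of the 20, 1 was called higher and 2 lower (5.09% and 4.76% of all tested genes), with 5 log2 fold changes above 0 and 15 below and a median of -0.17. TBL2 was at 47.0, 43.8 and 30.7 normalized cpm in sgCtrl and 76.9, 64.1 and 96.1 in sgN6AMT1, with every sgN6AMT1 library above the controls (log2 fold change 0.97, SE 0.23, edgeR adjusted p = 0.0142). It did not pass without sgCtrl replicate 2 or sgCtrl replicate 3 (edgeR adjusted p = 0.0604 and 0.0610). IFRD1, a decay target with an upstream open reading frame, went the other way, from 164.1 ± 10.0 to 76.6 ± 4.95 cpm (log2 fold change -1.09, SE 0.16, edgeR adjusted p = 4.78e-04), and it was called in all 18 alternatives. HNRNPDL, an RNA-binding protein whose mRNA carries an alternative exon that triggers NMD, fell from 419.7 ± 27.7 to 275.9 ± 39.3 cpm (log2 fold change -0.61, SE 0.15, edgeR adjusted p = 0.0156). It did not pass without sgCtrl replicate 1 or sgCtrl replicate 2 (0.0534 and 0.102). Gene counts do not separate the decayed isoforms of such genes from the productive ones.

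**Figure D5:**
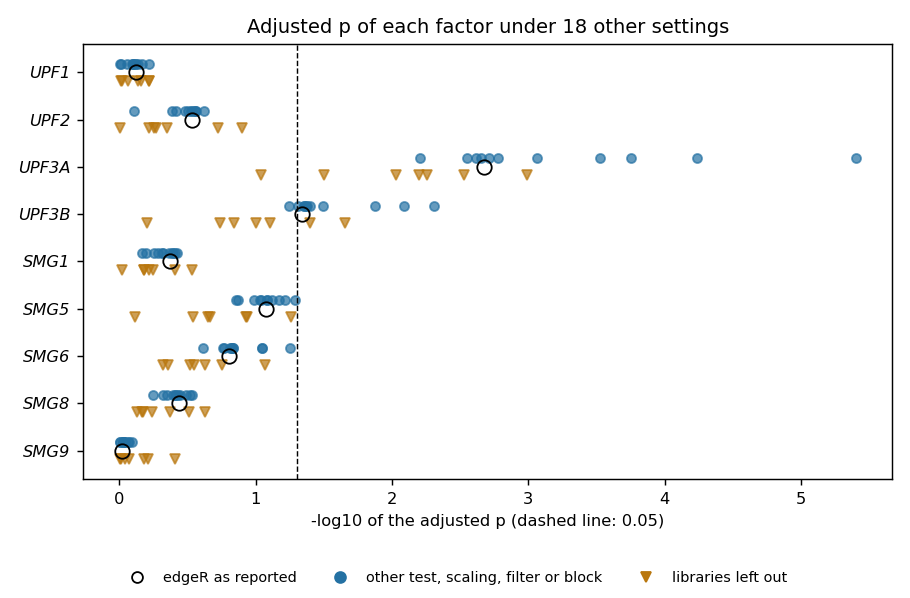
The adjusted p of each of the 9 factors as -log10, in the reported edgeR fit (open circle) and in 18 alternative fits, with circles for another test, scaling, filter, correction or block and triangles for fits with libraries left out; the dashed line marks 0.05. UPF3A lies right of the line in 17 of the 18 alternatives, UPF3B in 12 and SMG5 in 0.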

How the data were processed

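Total RNA was taken from cleared lysates of K562 cells, rRNA was depleted, and stranded libraries were sequenced, whereas polyA RNA is the molecule named in the labels. The authors trimmed reads with cutadapt (minimum length 15, quality cutoff 2), mapped what was left to GRCh38 (HISAT2, default parameters) with the annotation of release 84, and deposited raw counts per gene and library without normalization. The counting tool, its strand setting and its treatment of multiply mapped reads are not given in the sources used here.

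Of 19330 symbols, 18855 matched GENCODE v44 (871 through an older symbol), which gave positions, lengths and sequences. Genes passing filterByExpr (8324) were scaled by TMM, and edgeR 4.0.16 in R 4.3.3 (glmQLFit, then glmQLFTest) compared the groups over the 6 libraries, grouped by their labels and without covariates. The Benjamini-Hochberg adjustment ran over all genes tested, and a gene was called at an adjusted p under 0.05. The SE is the log2 fold change divided by the square root of the F statistic. The 18 alternatives covered DESeq2 1.42.0, scaling, filters, GC content and length, the replicate block, thinning and left-out libraries. For the ratios of counts, an exact permutation test (two-sided) was used. The code was tested on simulated data.

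Total counts were 742470 to 5526904 per library, and the common biological coefficient of variation was 0.16. Intervals on single libraries (95% Wilson) and the floor of 3 counts cover counting error only, and reads carried no molecular identifiers. The factors and the gene lists were chosen with earlier results of these data known. The text names all 9 factors, N6AMT1, ETF1, GSPT1 and EIF4A3, every called gene of the other lists of NMD genes and targets (at most 5 per direction and list), and the 3 genes nearest to each called factor among those with a mean of at least 50 normalized cpm. A gene of the decay lists is not reported here and was left out of their counts. HIC1, MS4A1, KRT5, EPCAM, ALB and PECAM1 were named after their values were seen. The other experiments of the study were not analysed here.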

Additional observations from a re-analysis of the deposited data

How the results depend on the processing

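Of 162 comparisons of the 9 factors with an alternative fit, 147 kept their direction and their side of the threshold, 7 kept the direction but lost the call and 8 changed sign. UPF3A and UPF3B kept their direction in all 18 fits, and all 7 lost calls were theirs. The other factors were called in no fit, so keeping their side of the threshold says little about stability. The number of factors called (2) was 1 with DESeq2 and 0 without sgN6AMT1 replicates 2 and 3, and 1 to 2 when 1 library was left out. The other NMD genes called (6) numbered 11 with GC content, length and the replicate block, 0 without sgN6AMT1 replicates 2 and 3, and 0 to 8 with 1 library left out. The decay targets called (3) numbered 1 without those replicates and 1 to 3 with 1 library left out. Over all genes, 820 calls became 1368 with GC content, length and the replicate block, 122 without sgN6AMT1 replicates 2 and 3, and 220 to 951 with 1 library left out; the cause was not tested, but fewer libraries enter each of the last fits. Without sgN6AMT1 replicates 2 and 3, which leaves 1 library in that group, assumed to vary like the sgCtrl libraries, the signs of UPF1 (-0.080), UPF2 (0.023), ETF1 (0.052) and EIF4A3 (-0.10) turned, with each value within its SE of 0. With GC content and length, ETF1 was at 0.013 and EIF4A3 at -0.059, and with the replicate block added they were at 0.013 and -0.069. Leaving out 1 library moved the log2 fold change of UPF1 between -0.066 and 0.21, of SMG9 between -0.37 and 0.27 and of EIF4A3 between -0.10 and 0.10. Without the filter on low counts the median of all genes rose by 0.11 (log2). As shares of the genes tested, the 820, 1368 and 220 to 951 calls over all genes were 9.85%, 16.8% and 2.54% to 11.2%.

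Same-numbered libraries of the groups correlated at -0.00052, 0.083 and 0.19 in their deviations from the group means. The best match of sgCtrl replicates 1, 2 and 3 was sgN6AMT1 replicate 2 (0.019), 1 (0.14) and 3 (0.19). These values do not settle whether same-numbered libraries belong together, and the labels give only a shared number. The replicate block gave 2 factors, 8 of 42 other NMD genes and 4 of 20 decay targets called, and no factor changed its call. Over all tested genes it called 1195 of 8324 (14.4%), against 9.85% in the main fit. Low counts limit the precision of SMG6, UPF3A and UPF3B, with as few as 14, 22 and 22 counts in a library.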
